A study of Homo sapiens with 8 samples.

Results

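Drug efflux and uptake transporters were followed through HepG2 and Huh7 cells as a set of 9 genes: the ATP-binding cassette (ABC) exporters ABCB1, ABCB4, ABCB11, ABCC1, ABCC2, ABCC3 and ABCG2, and the organic anion carriers SLCO1B1 and SLCO1B3. The genes were chosen by name, with earlier results of these data known. Their rows were found among the 63241 Ensembl gene identifiers of the deposited values. Of the 9, 6 passed the filter for testing (2 or more libraries at 1 FPKM or above), as did 15173 genes in all. FPKM scales fragments by transcript length and library size, so levels of different genes can be set side by side within a library. ABCB11, SLCO1B1 and SLCO1B3 did not pass and are described by their levels.

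HepG2 and Huh7 are established human lines grown from liver tumours. WT cells are the sorafenib-sensitive parents, given as control in the labels, and SR cells were made resistant to sorafenib, a multikinase inhibitor, by growth in rising concentrations of the drug. Each cell line was sequenced as WT and as SR in 2 libraries of polyadenylated RNA, which makes 8 in all, and the labels put them in a single batch. The labels do not say whether drug was present at harvest, how many independent lines the SR cells represent, or whether replicates were separate cultures, so p-values measure only the spread between these libraries.

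In a hepatocyte, bile acids, hormones and drugs enter from blood through carriers of the basolateral membrane and leave into bile through pumps of the canalicular membrane. ABC exporters use ATP to move substrates outwards, and several of them accept anticancer drugs, which is why they are known as multidrug resistance proteins. Sorafenib is known as a substrate of ABCB1 and ABCG2, and its glucuronide as a substrate of ABCC2 and of the SLCO1B carriers.

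The libraries did not follow the labelled cell line, which bears on every comparison. In Pearson's r of log2(FPKM + 1) across the 15173 tested genes, which are not independent replicates, 5 libraries resembled one another, with values of 0.914 to 0.977. Against those 5, the library labelled HepG2 SR replicate 2 reached only 0.775 to 0.819. Both libraries labelled Huh7 replicate 1, WT and SR, reached 0.731 to 0.783, although they were alike (0.965). The summed FPKM of 13 hepatocyte markers ranged from 1109 to 9155 across libraries, ALB (albumin) from 11.98 to 4713 FPKM, and AFP (alpha-fetoprotein) from 1.07 to 35.8 FPKM in 7 libraries against 1100 in HepG2 SR replicate 2. VIM, the mesenchymal filament vimentin, stood at 536 FPKM in HepG2 SR replicate 2 and at 7.02 or less elsewhere. Of the other 5 mesenchymal markers COL1A2 was also highest in that library (8.28 FPKM), while COL1A1, COL3A1, PDGFRB and THY1 were at 0.376 FPKM or less there. KRT19, a bile duct keratin, stood at 0.179 to 2.37 FPKM in those 3 libraries and at 155 to 760 in the other 5. Among the other bile duct or progenitor markers EPCAM was also lower in the 3 (7.03 to 11.0 FPKM, against 77.1 to 157). CFTR went the other way (0.389 to 1.77 FPKM, against 0.166 or less), and SOX9 and KRT7 did not separate the 3 from the 5. The blood markers PTPRC and HBB did not exceed 0.183 FPKM in any library, and the third blood marker, the macrophage protein CD68, ranged from 3.94 to 29.1 FPKM. Groups below are those of the labels, and the changes of the tested members between SR and WT in each line are given with and without these 3 libraries.

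In total transcript level the set was led by ABCC2, the canalicular pump for conjugated organic anions. ABCC2 ranked first of the 9 in each of the 8 libraries and made up between 33.3% and 85.0% of their summed FPKM. That sum lay between 168 and 286 FPKM in 7 libraries and at 74.1 FPKM in HepG2 SR replicate 2. The order behind ABCC2 changed with the library. ABCC3 was second in the 5 libraries that resembled one another and came behind 4 other members in both Huh7 replicate 1 libraries, where ABCB1 or ABCG2 was second.

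**Figure D1:**
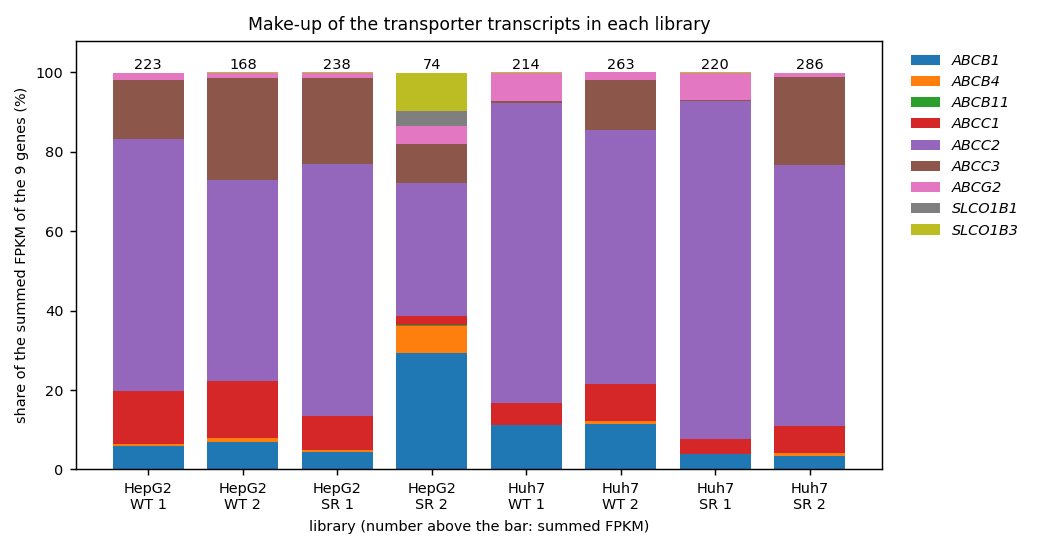
Share of the summed FPKM of the 9 transporter genes held by each gene (y axis, percent) in each of the 8 libraries (x axis), with the summed FPKM above each bar. ABCC2 holds the largest share in each library, from 33.3% in HepG2 SR replicate 2 to 85.0% in Huh7 SR replicate 1.

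ABCB1 encodes P-glycoprotein, the multidrug efflux pump of the canalicular membrane, and lies on chromosome 7 at chr7:87503633-87713323 on the minus strand (GRCh38, GENCODE release 29), next to its paralog ABCB4 at chr7:87401697-87480435. RefSeq gives it a pair of transcription starts (GRCh38.p14), and both windows are shown because ABCB1 was the only member called between SR and WT. FPKM per gene do not tell which start was used. Each runs from 250 bases before the start to 50 after it, 5′ to 3′ on the minus strand. Capitals mark a CCAAT box (CCAAT on either strand), a short element common in promoters without a TATA box.
ABCB1 upstream start, chr7:87713246-87713545: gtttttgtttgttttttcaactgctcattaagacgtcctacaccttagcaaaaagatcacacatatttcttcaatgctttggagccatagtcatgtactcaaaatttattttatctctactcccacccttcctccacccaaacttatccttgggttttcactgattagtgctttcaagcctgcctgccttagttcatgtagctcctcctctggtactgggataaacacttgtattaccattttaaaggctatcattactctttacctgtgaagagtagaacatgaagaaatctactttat
ABCB1 downstream start, chr7:87600835-87601134: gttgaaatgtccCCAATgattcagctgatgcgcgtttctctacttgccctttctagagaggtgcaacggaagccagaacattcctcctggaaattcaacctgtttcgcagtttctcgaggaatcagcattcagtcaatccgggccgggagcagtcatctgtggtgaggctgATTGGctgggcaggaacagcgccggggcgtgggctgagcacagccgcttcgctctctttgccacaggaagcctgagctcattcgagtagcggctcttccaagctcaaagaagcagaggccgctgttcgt

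The downstream window held CCAAT with its first base at -238 from the start, and its reverse complement at -79. The upstream window held none of the 4 motifs searched: CCAAT, the GC box GGGCGG, the TATA box TATAAA and the nuclear receptor half-site AGGTCA. Among 35116 RefSeq promoter windows of the same length, CCAAT occurred on either strand in 34.6%, GGGCGG in 45.0%, TATAAA in 11.5% and AGGTCA in 13.8%. A match is a match of letters only.

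ABCB1 was lower in Huh7 SR than in Huh7 WT. The Huh7 WT libraries held 24.1 and 29.9 FPKM and the Huh7 SR libraries 8.34 and 10.01 FPKM, a mean of 26.98 ± 4.06 against 9.17 ± 1.18 (SD, n = 2 each). Both SR libraries lay below both WT libraries. In HepG2 the WT libraries held 13.1 and 11.5 FPKM and the SR libraries 10.2 and 21.8 FPKM. HepG2 SR replicate 1 was the lowest and HepG2 SR replicate 2 the highest of these, so the groups overlapped.

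**Figure D2:**
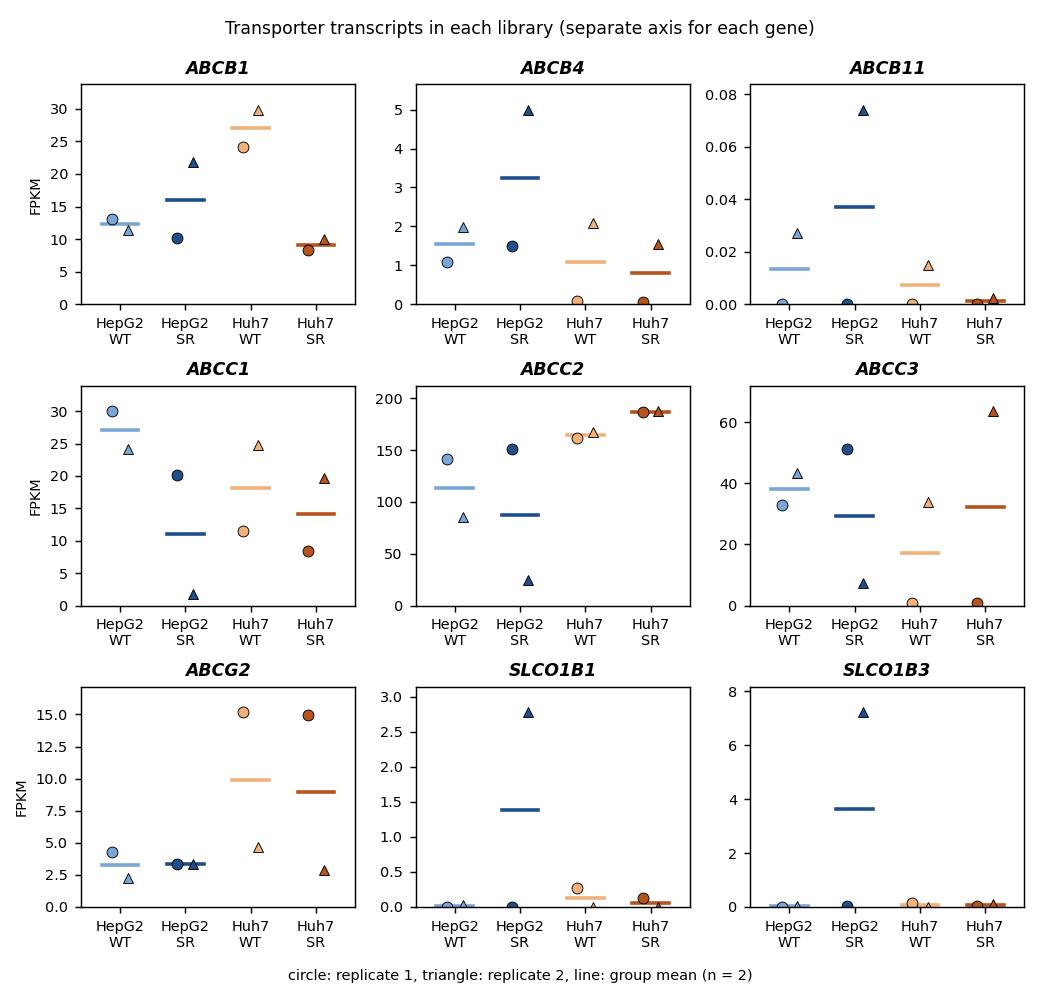
FPKM (y axis, linear, scaled for each gene) of the 9 transporter genes by cell line and state (x axis), with replicate 1 as a circle, replicate 2 as a triangle and the mean of 2 libraries as a line. For ABCB1 both Huh7 SR libraries (8.34 and 10.01 FPKM) lie below both Huh7 WT libraries (24.1 and 29.9), whereas ABCC3 and ABCB4 split by replicate within Huh7, and SLCO1B1 and SLCO1B3 rise above 1 FPKM in HepG2 SR replicate 2 alone.

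SR was tested against WT with limma on log2(FPKM + 1). A single fit shared the spread of all 4 groups, so the 95% interval of a gene is equally wide in HepG2 and in Huh7. A gene was called where its unadjusted p was under 0.05 and its log2 fold change reached 0.5 upwards or passed -0.5 downwards. In Huh7 the log2 fold change of ABCB1 was -1.46 (SE 0.42), with a 95% interval from -2.45 to -0.46. After Benjamini-Hochberg adjustment over all genes tested it did not pass (limma adjusted p = 1.0). ABCB1 was thus 1 of 6 tested members called in Huh7, where 283 of all 15173 genes (1.87%) were called. Of all 15173 genes 12.9% had both SR libraries below both WT libraries. Without the library labelled Huh7 WT replicate 2 the fold change was -1.31 and the call was lost. It was kept with each of the other 7 libraries left out.

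The ABCB1 change in HepG2 was not called, with a log2 fold change of 0.27 and a 95% interval from -0.72 to 1.26. Here 0 of 6 members were called, beside 2.14% of all genes tested. The change in Huh7 minus that in HepG2 was -1.73 (SE 0.59, limma adjusted p = 1.0), and ABCB1 was again 1 of 6 members called, beside 0.606% of all genes. This call was lost with any of 5 libraries left out, namely either HepG2 WT library (-1.82 without replicate 1, -1.64 without replicate 2), the second HepG2 SR library (-1.22), the second Huh7 WT library (-1.58) or the first Huh7 SR library (-1.61).

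Without the 3 libraries that stood apart, HepG2 WT kept 2 libraries and each other group 1, so single libraries were assumed to vary like the HepG2 WT pair. ABCB1 was then still called lower in Huh7 SR, with a log2 fold change of -1.49 (SE 0.34, limma adjusted p = 0.399), and its change in HepG2 was -0.24 and not called. The difference between the lines was -1.25 (SE 0.45, limma adjusted p = 0.752) and its call was lost. Over both lines the fold change was -0.86 (SE 0.23, limma adjusted p = 0.471) and called, against -0.59 and no call with all 8 libraries.

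**Figure D3:**
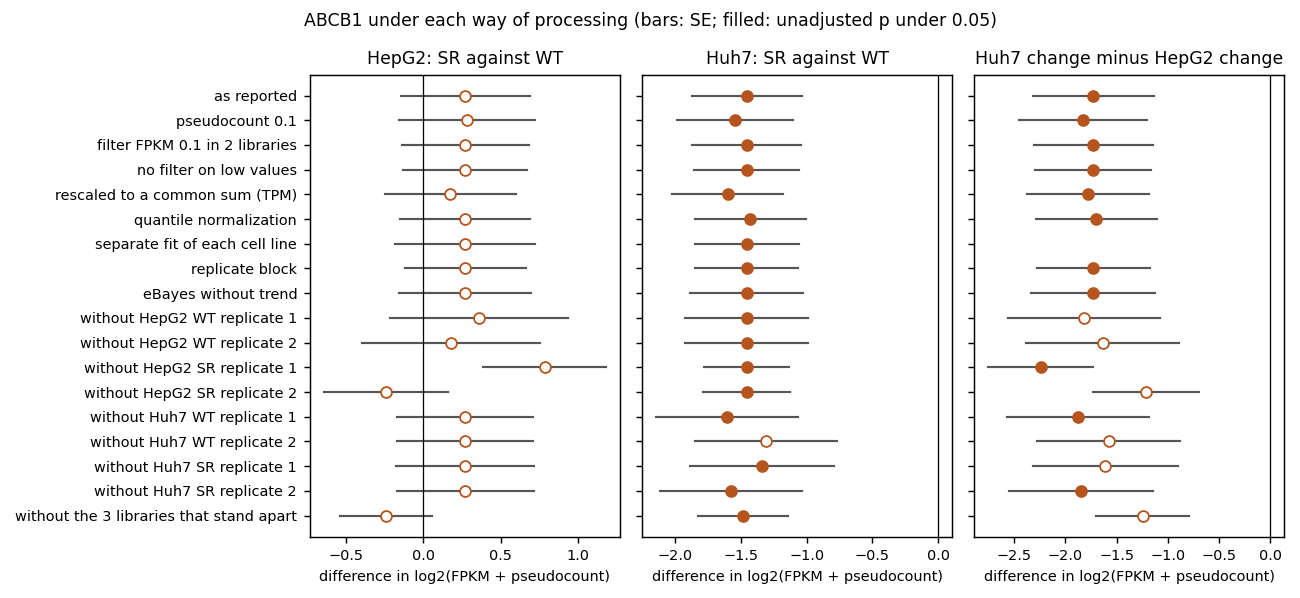
Difference of ABCB1 in log2(FPKM + pseudocount) between SR and WT in HepG2 (left), in Huh7 (middle) and Huh7 minus HepG2 (right), with its SE as a bar, for each way of processing and each library left out (y axis). Filled points have an unadjusted p under 0.05; the Huh7 values lie between -1.61 and -1.31, and the HepG2 value turns negative only without HepG2 SR replicate 2.

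Between the parental lines ABCB1 was higher in Huh7 WT than in HepG2 WT, by 1.07 on the log2 scale (SE 0.42, limma adjusted p = 0.827). It was 1 of 6 members called there, beside 4.41% of all genes tested. The call was lost with any of 6 single libraries left out, with values between 0.92 and 1.22: HepG2 WT replicates 1 and 2, Huh7 WT replicates 1 and 2, and Huh7 SR replicates 1 and 2. Huh7 SR stood at or below the HepG2 WT level, so the highest values of the set for this gene were those of Huh7 WT.

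RUNDC3B overlaps ABCB1 on the opposite strand over 85776 bases, and no source says whether strand was used in counting. It ranged from 0.311 to 4.69 FPKM, highest in Huh7 WT replicate 1 and 1.07 FPKM or less in the others. Of the 31-base words in ABCB1 transcripts 3.50% also occur in ABCB4, so few reads could be split between these paralogs.

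ABCB4, the canalicular floppase that moves phosphatidylcholine into bile, did not share the ABCB1 pattern. HepG2 libraries held 1.10 and 1.97 FPKM as WT, against 1.51 and 4.998 as SR. Those of Huh7 held 0.0734 and 2.09 FPKM as WT, against 0.0589 and 1.56 as SR. Within Huh7 it was at least 1.56 FPKM in replicate 2 and under 0.1 in replicate 1 of both WT and SR, so the groups overlapped. Its log2 fold change was 0.63 in HepG2, with a 95% interval from -1.10 to 2.37, and -0.15 in Huh7, from -1.88 to 1.58. With the 3 libraries that stood apart left out, these were 0.0058 and -0.27, neither called.

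Of 10 listed genes beside ABCB1 and ABCB4 on chromosome 7, 9 were tested. DBF4, the activator of the replication kinase CDC7, 162.9 kb from ABCB1, was called higher in HepG2 SR (log2 fold change 1.49, SE 0.52, limma adjusted p = 0.956) and over both lines (1.0, SE 0.37, limma adjusted p = 0.998). It was the only one called, beside 2.14% of all genes in HepG2 and 3.93% over both lines. In Huh7 0 of 9 were called, beside 1.87% of all genes. DBF4 levels were 2.61 and 4.81 FPKM in the HepG2 WT libraries, against 8.63 and 16.1 in the SR libraries. Both calls were lost without the 3 libraries that stood apart (1.07 and 0.66), and both without HepG2 WT replicate 1 or HepG2 SR replicate 2. The call over both lines was also lost without Huh7 WT replicate 2 or Huh7 SR replicate 1. The median log2 fold change of the 9 neighbours in Huh7 was -0.30, against -0.06 over all genes tested.

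SRI, which encodes the calcium-binding protein sorcin and lies 491.8 kb from ABCB1, is named here after its values were seen. It stood at 50.7 FPKM in HepG2 SR replicate 2, 30.7 in Huh7 WT replicate 1 and 18.5 in Huh7 SR replicate 1. In the other 5 libraries it was at most 0.0828 FPKM.

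ABCB11, the bile salt export pump, is the main canalicular exporter of bile acids (chr2:168915498-169031324, minus strand). It was listed at 0 in the replicate 1 library of each group. Among replicate 2 libraries HepG2 reached 0.0273 FPKM as WT and 0.0742 as SR, and Huh7 reached 0.0149 as WT and 0.00223 as SR. No library reached 0.1 FPKM, and no fold change is given.

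ABCC2 (chr10:99782640-99852594, plus strand) held 142 and 85.2 FPKM in the HepG2 WT libraries, against 151 and 24.7 FPKM in HepG2 SR. The Huh7 WT libraries held 162 and 168 FPKM, and the Huh7 SR libraries 187 and 188 FPKM. Both Huh7 SR libraries lay above both WT libraries. ABCC2 was thus 1 of the 2 members that did not overlap in Huh7 in either direction, beside 22.0% of all genes tested. The Huh7 difference was not called, with a log2 fold change of 0.18 and a 95% interval from -1.65 to 2.02. This interval also holds changes of several fold in either direction. Its half-width (1.835 in both lines) comes from the spread of all 4 groups. That spread was largest in HepG2 SR (SD 89.4 FPKM, against 4.21 in Huh7 WT and 0.628 in Huh7 SR). In HepG2 the fold change was -0.83 (95% interval -2.66 to 1.01) and rested on HepG2 SR replicate 2. Without that library it was 0.45, and without HepG2 SR replicate 1 it was -2.11 and called. Without the 3 libraries that stood apart ABCC2 was at 0.45 in HepG2 and 0.16 in Huh7, neither called. Among tested genes ABCC2 lay between the 96.0 and 98.4 percentiles by level in 7 libraries and at the 81.3 percentile in HepG2 SR replicate 2.

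ABCG2, the breast cancer resistance protein (chr4:88090264-88231322, minus strand), showed levels that split by replicate in Huh7. Replicate 1 held 15.2 FPKM in Huh7 WT and 14.9 in Huh7 SR, and replicate 2 held 4.67 and 2.90. HepG2 held 4.30 and 2.28 FPKM in WT and 3.33 and 3.34 in SR. WT and SR overlapped in HepG2 and in Huh7, with log2 fold changes of 0.06 (95% interval -1.79 to 1.90) and -0.28 (-2.12 to 1.57). They were 0.06 and -0.54 without the 3 libraries that stood apart, neither called. The HepG2 value turned to -0.02 when every library was rescaled to a common sum, so it has no direction.

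ABCC1, the multidrug resistance-associated protein 1 of the basolateral membrane (chr16:15949577-16143074, plus strand), was lower in both HepG2 SR libraries but not called. Its level was 30.0 and 24.1 FPKM in the HepG2 WT libraries, against 20.2 and 1.84 FPKM in the SR libraries. This was the only member whose HepG2 groups did not overlap, beside 38.2% of all genes tested. Its log2 fold change was -1.85 (95% interval -4.07 to 0.38). HepG2 SR replicate 2 set its size: the fold change was -0.40 without that library and -3.30 without HepG2 SR replicate 1, where it was called. The Huh7 libraries held 11.6 and 24.9 FPKM of ABCC1 as WT, against 8.47 and 19.6 as SR. The groups overlapped there, with a fold change of -0.37 (95% interval -2.59 to 1.86). Without the 3 libraries that stood apart ABCC1 was at -0.40 in HepG2 and -0.32 in Huh7, neither called.

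ABCC3, a basolateral exporter of glucuronides and bile acids that is known to be raised in cholestasis (chr17:50634777-50692252, plus strand), differed widely between libraries. HepG2 libraries held 32.9 and 43.2 FPKM as WT, against 51.2 and 7.36 as SR. Those of Huh7 held 0.876 and 33.7 FPKM as WT, against 0.888 and 63.6 as SR. Both Huh7 replicate 1 libraries were under 1 FPKM. The 5 libraries that resembled one another lay between 32.9 and 63.6 FPKM, and HepG2 SR replicate 2 lay between these levels. The log2 fold change was -0.89 in HepG2 (95% interval -5.52 to 3.74) and 0.45 in Huh7 (-4.18 to 5.08). These were 0.43 and 0.90, neither called, once the 3 libraries that stood apart were omitted. Between the libraries numbered 2 the ratio of SR to WT was 1.89 in Huh7 and 0.170 in HepG2. Between those numbered 1 it was 1.01 and 1.56. The labels do not tie these numbers between WT and SR, so the ratios are not paired changes.

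**Figure D4:**
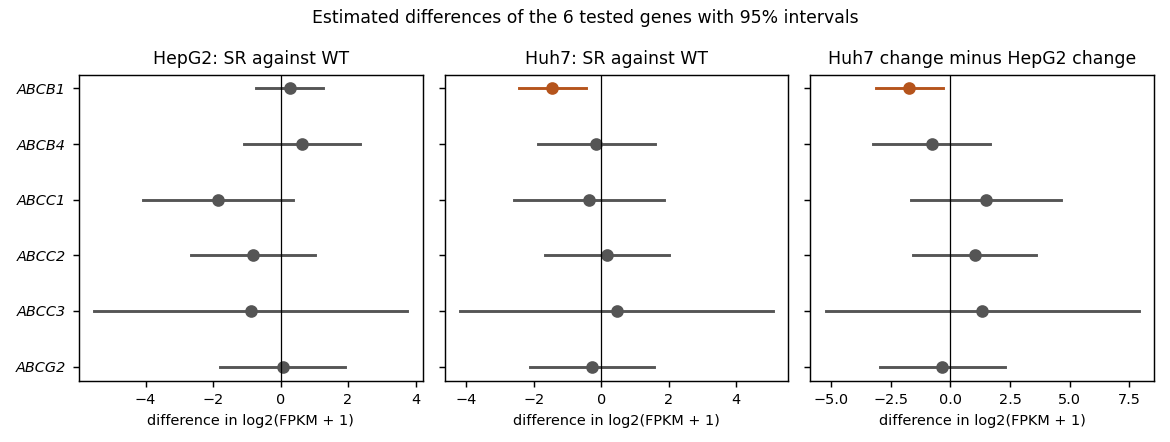
Difference in log2(FPKM + 1) between SR and WT (x axis) for the 6 tested transporter genes, in HepG2 (left), in Huh7 (middle) and Huh7 minus HepG2 (right), with 95% intervals from limma as bars. The interval excludes 0 for ABCB1 in Huh7 (-2.45 to -0.46) and for its difference between lines (-3.13 to -0.32), and includes 0 for the other genes shown.

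Over both lines together 0 of 6 members were called, beside 3.93% of all genes tested by limma. The 4 SR libraries overlapped the 4 WT libraries for each of the 6, beside 3.68% of all genes that did not overlap. Of the 6 fold changes over both lines 5 were below 0, beside 8353 of all 15173 genes. Their median was -0.27, against -0.05 over all genes. At an adjusted p under 0.05 limma called 0 of 15173 genes (0.0%) in any of the 5 comparisons, with 325, 283 and 597 genes at an unadjusted p under 0.05 in HepG2, in Huh7 and over both lines. Each of these counts is a smaller share of the genes tested than the 0.05 expected where no gene differs.

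SLCO1B1 and SLCO1B3 are the hepatocyte uptake carriers OATP1B1 and OATP1B3, neighbours on chromosome 12 (chr12:21131202-21239246 and chr12:20810702-20916911, plus strand). Their promoter windows are shown because both genes were highest in the same library. Capitals mark the CCAAT box, the TATA box and the nuclear receptor half-site AGGTCA, on either strand.
SLCO1B1, chr12:21130944-21131243: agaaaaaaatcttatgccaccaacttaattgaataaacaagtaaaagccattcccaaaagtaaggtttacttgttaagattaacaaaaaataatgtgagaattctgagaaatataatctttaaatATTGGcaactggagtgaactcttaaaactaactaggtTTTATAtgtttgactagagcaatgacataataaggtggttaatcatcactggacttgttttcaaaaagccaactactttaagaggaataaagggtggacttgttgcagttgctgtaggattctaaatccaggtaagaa
SLCO1B3, chr12:20810455-20810754: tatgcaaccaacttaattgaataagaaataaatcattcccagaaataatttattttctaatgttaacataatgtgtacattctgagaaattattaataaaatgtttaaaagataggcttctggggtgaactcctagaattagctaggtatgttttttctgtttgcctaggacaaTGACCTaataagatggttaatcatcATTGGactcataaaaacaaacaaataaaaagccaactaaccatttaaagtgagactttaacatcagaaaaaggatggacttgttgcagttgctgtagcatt

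Both windows held the reverse complement of CCAAT, with its first base at -125 in SLCO1B1 and at -51 in SLCO1B3, which 34.6% of all promoter windows hold on either strand. The SLCO1B1 window also held TATAAA on the opposite strand at -88, and the SLCO1B3 window AGGTCA on the opposite strand at -76.

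SLCO1B3 stood at 7.22 FPKM in HepG2 SR replicate 2 and at 0.132 FPKM or less in the other 7 libraries, listed at 0 in Huh7 WT replicate 2. SLCO1B1 stood at 2.77 FPKM in HepG2 SR replicate 2, at 0.264 in Huh7 WT replicate 1, at 0.123 in Huh7 SR replicate 1 and at 0.0323 in HepG2 WT replicate 2. It was listed at 0 in both HepG2 replicate 1 libraries and in both Huh7 replicate 2 libraries. Each thus exceeded 1 FPKM in a single library, and HepG2 SR replicate 1 did not share the level. HepG2 SR replicate 2 also held the highest VIM of the 8 libraries. Among the hepatocyte markers it held the highest ALB, AFP and TTR, but the lowest CPS1 and ASGR1. The part of those differences in the SLCO1B levels was not tested. With a filter at an FPKM of 0.1 both could be tested in HepG2, and neither was called (log2 fold change 1.504 for SLCO1B3 and 0.94 for SLCO1B1).

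Of the 31-base words in SLCO1B3 transcripts 53.4% also occur in the readthrough gene SLCO1B3-SLCO1B7, and SLCO1B1 shares 11.3% with ENSG00000257062. Those genes did not exceed 0.0893 and 0.0789 FPKM in any library. How shared fragments were counted is not given, so both levels are uncertain. SLCO1A2, a related carrier of chromosome 12, is named after its values were seen. It stood at 1.92 FPKM in HepG2 SR replicate 2, 0.407 in Huh7 WT replicate 1, 0.150 in Huh7 SR replicate 1 and at most 0.0183 in the other 5.

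Other transporters were followed by lists. Of 20 other exporters (ABC proteins, lipid and metal pumps and the bile acid and cation exporters SLC51A, SLC51B and SLC47A1) 18 were tested, and 13 reached 1 FPKM in each of the 8 libraries. ABCC5, an exporter of cyclic nucleotides, was the only one called between SR and WT, over both lines (log2 fold change -0.61, SE 0.22, limma adjusted p = 0.998), beside 3.93% of all genes tested. It stood at 15.5, 19.4, 24.5 and 22.2 FPKM in the WT libraries and at 11.4, 11.0, 15.0 and 14.3 FPKM in the SR libraries, in the order HepG2 then Huh7. The 4 SR libraries lay below the 4 WT libraries, beside 3.68% of all genes that did not overlap in either direction. Without the 3 libraries that stood apart it was -0.58 and not called, and the call was also lost without any of HepG2 WT replicate 2, HepG2 SR replicate 2, Huh7 WT replicate 1 and either Huh7 SR library (range of all 8 omissions -0.68 to -0.53).

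The median over the tested exporters was -0.26 in HepG2 and 0.15 in Huh7 as a log2 fold change, against -0.03 and -0.06 over all genes tested. Its members with a mean of at least 5 FPKM numbered 14. ABCB6, a porphyrin transporter, had the highest mean (28.1 FPKM) and ranged from 24.3 to 48.2 FPKM in 6 libraries, with 0.328 and 0.893 FPKM in Huh7 WT replicate 1 and Huh7 SR replicate 1. ABCG5, the sterol exporter of the canalicular membrane, lay between 8.51 and 14.6 FPKM in the 5 libraries that resembled one another and between 0.0248 and 0.0662 in the other 3. ABCC4, a basolateral exporter of cyclic nucleotides and bile acids, was highest in Huh7 WT replicate 1 and Huh7 SR replicate 1 (16.1 and 16.8 FPKM), as ABCG2 was.

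SLC51A and SLC51B encode the subunits of the basolateral bile acid exporter, and their levels ran in opposite directions. SLC51A ranged from 7.74 to 42.9 FPKM in the 5 libraries and from 1.49 to 2.83 in the other 3. SLC51B ranged from 2.59 to 5.07 FPKM in those 5, with 14.9 in HepG2 SR replicate 2, 64.1 in Huh7 WT replicate 1 and 36.6 in Huh7 SR replicate 1. SLC47A1, the proton-coupled exporter MATE1 of organic cations, was at 0.905 and 0.968 FPKM in the Huh7 replicate 1 libraries and at 5.76 to 33.8 elsewhere.

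Of 20 other uptake carriers 13 were tested, and limma called 0 of them in HepG2, in Huh7 and over both lines. Of all genes tested 2.14%, 1.87% and 3.93% were called there. Their median was 0.17 in HepG2 and 0.14 in Huh7 as a log2 fold change. SLC29A1, the equilibrative nucleoside carrier, had the highest mean (49.3 FPKM) of the 9 with a mean of at least 5. SLC10A1, the sodium-coupled bile acid carrier NTCP, was at 0.313 FPKM or less in each library. SLC15A1, a peptide carrier, stood at 24.5 and 16.7 FPKM in the Huh7 replicate 1 libraries and at 0.373 or less in the other 6, and SLC29A2 stood at 21.4 to 31.6 FPKM in the 3 libraries apart and at 1.04 to 2.73 in the 5.

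Genes known to set transporter levels in liver were followed as 14 factors, each of which was tested. CEBPA, a hepatocyte transcription factor, was higher in SR in HepG2 (log2 fold change 1.33, SE 0.44, limma adjusted p = 0.956), in Huh7 (1.32, SE 0.44, limma adjusted p = 1.0) and over both lines (1.32, SE 0.31, limma adjusted p = 0.998). HepG2 libraries held 17.9 and 27.2 FPKM as WT, against 41.6 and 78.2 as SR. Those of Huh7 held 12 and 14.5 FPKM as WT, against 42.9 and 27.4 as SR. The 4 SR libraries exceeded the 4 WT libraries, beside the same 3.68% of all genes. The call over both lines held with each of the 8 libraries left out and without the 3 apart (0.88). The call in HepG2 was lost without HepG2 WT replicate 1 or HepG2 SR replicate 2, that in Huh7 without Huh7 WT replicate 1 or Huh7 SR replicate 1, and both without the 3 (0.88 in each).

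HNF4A, a master regulator of hepatocyte genes, was called higher in Huh7 SR (log2 fold change 0.96, SE 0.40, limma adjusted p = 1.0), and 6 of 8 omissions of a library lost this call, as did leaving out the 3 (1.15). NR1H4, the bile acid receptor FXR, was called over both lines (1.66, SE 0.67, limma adjusted p = 0.998). HepG2 libraries held 4.48 and 14.03 FPKM as WT, against 19.8 and 85.9 as SR. Those of Huh7 held 1.42 and 4.67 FPKM as WT, against 3.33 and 13.5 as SR. Its call was lost without HepG2 WT replicate 1, HepG2 SR replicate 2, Huh7 WT replicate 1 or Huh7 SR replicate 2, and without the 3 (1.27). In all, 1 of 14 factors was called in HepG2, 2 in Huh7 and 2 over both lines, each higher in SR, beside 2.14%, 1.87% and 3.93% of all genes tested. Their median log2 fold change was 0.33, 0.39 and 0.38, against -0.03, -0.06 and -0.05 over all genes.

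NR1I2, the drug-sensing receptor PXR that is known to raise ABCB1, was not called. HepG2 libraries held 12.4 and 13.7 FPKM as WT, against 8.03 and 0.478 as SR. Those of Huh7 held 0.157 and 10.8 FPKM as WT, against 0.0439 and 8.08 as SR. NR0B2, the FXR-induced repressor SHP, also stood lowest in the same 3 libraries (1.79 to 4.53 FPKM) and between 34.1 and 67.3 in the other 5. In these 3 libraries ABCB1 was at 21.8 FPKM in HepG2 SR replicate 2, at 24.1 in Huh7 WT replicate 1 and at 8.34, its lowest level, in Huh7 SR replicate 1. The part of NR1I2 in the ABCB1 levels was not tested.

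Of 9 scaffold and trafficking partners of apical transporters, each tested, PDZK1 was the 1 called in Huh7, for the difference between the lines and over both lines, beside 1.87%, 0.606% and 3.93% of all genes. PDZK1 is a PDZ-domain protein that binds the tails of apical transporters. It stood at 3.41 and 5.75 FPKM in Huh7 WT and at 19.0 and 20.9 in Huh7 SR, a log2 fold change of 1.94 (SE 0.44, limma adjusted p = 1.0). In HepG2 it stood at 19.1 and 16.4 FPKM in WT and at 21.2 and 10.2 in SR and was not called. The difference between the lines was 2.19 (SE 0.62, limma adjusted p = 1.0). Both calls held with each of the 8 libraries left out and without the 3 apart (1.70; 1.45). Over both lines it was also called (0.84, SE 0.31, limma adjusted p = 0.998), but 6 of 8 omissions lost that call. MSN, the membrane linker moesin, stood at 65.6 and 54.7 FPKM in the Huh7 replicate 1 libraries and at 0.199 or less in the other 6.

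**Figure D5:**
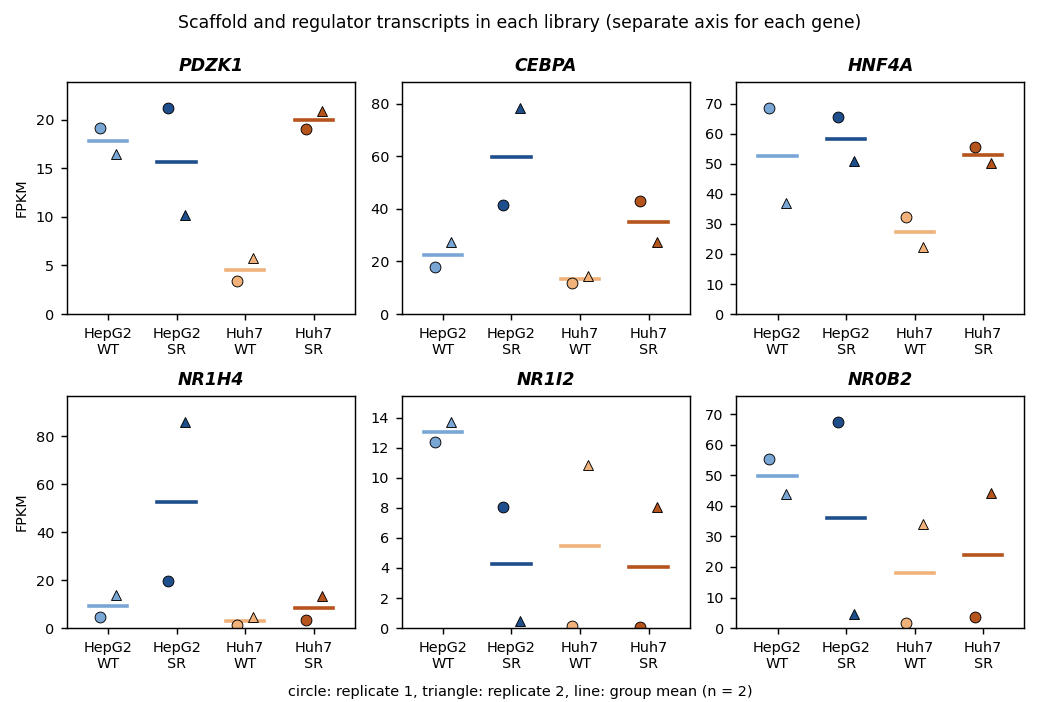
FPKM (y axis, linear, scaled for each gene) of PDZK1, CEBPA, HNF4A, NR1H4, NR1I2 and NR0B2 by cell line and state (x axis), with replicate 1 as a circle, replicate 2 as a triangle and the mean of 2 libraries as a line. PDZK1 stands at 3.41 and 5.75 FPKM in Huh7 WT and at 19.0 and 20.9 in Huh7 SR, while NR1I2 is under 0.5 FPKM in HepG2 SR replicate 2 and both Huh7 replicate 1 libraries.

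Hepatocyte markers were followed in the same comparison as ABCB1. Of 13 markers, each tested, 2 were called in Huh7, TF (transferrin, log2 fold change 2.13, SE 0.70, limma adjusted p = 1.0) and HNF4A, beside 1.87% of all genes. The fitted fold changes were above 0 for 13 of 13, beside 6779 of all 15173 genes. Their median was 1.78, against -0.06 over all genes. Within replicate 1, CPS1, FGB and TTR were lower in SR (391, 327 and 0.150 FPKM) than in WT (405, 380 and 0.371 FPKM). In HepG2 limma called 0 of 13, with a median of 0.16, and over both lines it called TF (1.37, SE 0.50, limma adjusted p = 0.998), beside 2.14% and 3.93% of all genes. The TF call in Huh7 was lost without Huh7 WT replicate 1 or Huh7 SR replicate 2 (range over omissions 1.01 to 3.25) and was kept without the 3 libraries (2.97). Over both lines the TF call was lost without HepG2 WT replicate 2, either HepG2 SR library or Huh7 WT replicate 1 (range over omissions 0.805 to 1.927). The summed marker level was 1109 and 1967 FPKM in Huh7 WT and 1413 and 9155 in Huh7 SR. Different markers made up these sums. CPS1 and FGB were the highest of the 13 in both Huh7 replicate 1 libraries. In Huh7 SR replicate 2 these were at 5.92 and 2.95 FPKM, and AHSG and ALB led (2919 and 2891 FPKM). The part of the summed level in the ABCB1 difference was not tested. Of the tested bile duct (5), mesenchymal (3), blood (1) and endothelial (1) markers limma called 0 in HepG2, in Huh7 and over both lines. The shares of all genes called there were 2.14%, 1.87% and 3.93%.

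As a description over the 8 libraries, which share their cell lines, the genes whose log2(FPKM + 1) ran most like each tested member were named among 13678 genes with a mean of at least 1 FPKM. For ABCB1 these were ZNF875 and SBNO2 (Pearson's r 0.962 and 0.948), for ABCB4 PMP22 and OGDHL (0.984 and 0.982), and for ABCC1 ITPR3 and CYFIP2 (0.994 each). For ABCC2 they were ENSG00000275234 and RNF169 (0.982 and 0.977), for ABCC3 COL9A3 and PROC (0.997 and 0.993), and for ABCG2 ID3 and ZNF544 (0.991 and 0.986). Among the members themselves r ran from -0.896 between ABCC3 and ABCG2 to 0.720 between ABCC1 and ABCC2, and ABCB1 had r between -0.293 and 0.273 with the other 5.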

How the data were processed

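Gene expression was measured by RNA sequencing in 8 libraries, 2 of WT and 2 of SR cells from each of HepG2 and Huh7, grouped by their labels. The authors enriched mRNA on oligo(dT) beads, used an NEBNext kit for library construction and deposited 1 FPKM value per gene and library, already scaled for depth and transcript length. Per the labels' processing notes, fastp 0.20.0 and GRCh38 were used. The aligner, the quantification tool and the annotation are not given in the sources used here. The test the study names needs counts, so limma 3.58.1 under R 4.3.3 was applied to log2(FPKM + 1), two-sided, with a trend in eBayes.

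The filter kept 15173 of 63241 genes, those that 2 or more libraries listed at 1 FPKM or above. A single fit held a mean for each of the 4 groups, leaving 4 residual degrees of freedom (median posterior SD 0.484 on the log2 scale). This fold change understates changes of low genes. Calls used the thresholds the study names (unadjusted p under 0.05, log2 fold change reaching 0.5 or passing -0.5), and Benjamini-Hochberg adjusted p-values covered all genes tested. The members and lists were chosen with earlier results of these data known. Named genes were the 9 members, at most 3 called genes with the largest change per list and comparison (HepG2, Huh7, both), list transporters with a mean of at least 5 FPKM, and the 2 genes most like each tested member. Some other genes fall outside these rules, among them NR1I2, NR0B2, MSN, SLC10A1 and RUNDC3B, and should not be read as chosen blind. Only SRI and SLCO1A2 are marked as chosen after their values were seen. Values of 2 genes of the lists are not reported here.

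Depth was estimated from steps between low FPKM values at 27.7 to 54.5 M fragments per library. These are estimates, read counts were not recovered, and intervals cover the spread between libraries. Symbols matched 62666 identifiers. Positions came from GENCODE release 29 and promoters from RefSeq (GRCh38.p14), which held 6 of the 9 members. The fit was tested on simulated data. Alternatives were TPM (each library rescaled to a common sum), quantile normalization, a pseudocount of 0.1, no filter or one at 0.1 FPKM, a replicate block, separate fits of the lines, a cutoff of 1, no trend, adjusted p, and leaving out each library or the 3 that stood apart. Tables were made with pandas 2.3.3 in Python 3.11.15 and figures with matplotlib 3.10.9.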

Additional observations from a re-analysis of the deposited data

Results flagged for a closer look

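Among the members, an end of the 4 WT or of the 4 SR libraries stood far from the others in 6 of 18 groups tested, where its gap to the nearest library, divided by the range, exceeded Dixon's 95% critical value for 4 samples. Chance gives about 1 in 20 groups such a result, and the libraries compared come from HepG2 and Huh7 together.

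In the SR libraries HepG2 SR replicate 2 was the high one for ABCB1 (gap ratio 0.861, 21.8 FPKM), ABCB11 (0.970, 0.0742 FPKM), SLCO1B1 (0.956, 2.77 FPKM) and SLCO1B3 (0.988, 7.22 FPKM). Huh7 SR replicate 1 was the high one for ABCG2 (0.964, 14.9 FPKM), and among the WT libraries Huh7 WT replicate 1 for SLCO1B1 (0.878, 0.264 FPKM). All of these are libraries that stood apart from the other 5 across all genes.

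ABCB1 also differed between the cell lines in its change from WT to SR, by -1.73 on the log2 scale (limma adjusted p = 1.0). In Huh7, both SR libraries lay below both WT libraries. In HepG2, SR replicate 1 lay below both WT libraries and SR replicate 2 above both. The call was lost in 5 of 8 omissions of a library and without the 3 libraries that stood apart (-1.25).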

How the results depend on the processing

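Depth in fragments is only estimated, and 2 libraries per group limit precision. Of 486 values of the 30 member results under 17 other settings, 424 kept their direction and side of the threshold, 38 changed sign, 13 lost and 11 gained a call. The cause was not tested.

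By adjusted p, 0 genes and 0 members passed in each comparison. Rescaling to a common sum moved the calls that were higher in SR from 40.9% to 26.5% in HepG2, from 50.5% to 34.6% in Huh7 and from 48.3% to 30.6% over both, called 1 member over both (ABCB1) and turned ABCG2 to -0.021 in HepG2. A cutoff of 1 called 218 of the 596 genes over both. A filter at 0.1 FPKM called 504 genes in HepG2 (325 as reported) and 254 for the difference between lines (92), and no filter 168. Separate fits called 124 in Huh7 (283).

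The labels do not say that a replicate number marks a batch, and deviations of same-numbered WT and SR libraries had r of 0.125 in HepG2 and 0.796 in Huh7, from a single contrast per line. With a replicate block, 1392, 669, 1509 and 535 genes were called in HepG2, Huh7, over both and for the difference, and 1 member in each. ABCC1 was gained in HepG2 and over both. The comparison of parental lines has no such fit.

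Without the 3 libraries that stood apart, 1777 genes were called in Huh7, 1439 over both, 940 for the difference and 2189 between parental lines, with 1 member over both and 0 for the difference. The sign changed for ABCB1 (-0.24), ABCC2 (0.45) and ABCC3 (0.43) in HepG2, ABCB4 (-0.13), ABCC2 (0.31) and ABCC3 (0.66) over both, ABCC2 for the difference (-0.30) and ABCB4 between parental lines (0.31).

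Leaving out 1 library at a time gave 57 to 1749 genes in HepG2, 154 to 818 in Huh7, 193 to 1277 over both, 24 to 945 for the difference and 171 to 1247 between parental lines, and 0 to 2, 0 to 1, 0 to 2, 0 to 3 and 0 to 1 members. Members that changed sign in HepG2 were ABCB1 (-0.24 to 0.78), ABCC2 (-2.11 to 0.45), ABCC3 (-2.21 to 0.43) and ABCG2 (-0.29 to 0.40), and in Huh7 ABCB4 (-0.91 to 0.62), ABCC1 (-0.93 to 0.20), ABCC3 (-2.10 to 3.0) and ABCG2 (-1.29 to 0.74). Over both they were ABCB4 (-0.14 to 0.63), ABCC2 (-0.96 to 0.32), ABCC3 (-1.49 to 1.06) and ABCG2 (-0.62 to 0.40), for the difference ABCC2 (-0.27 to 2.29), ABCC3 (-1.21 to 3.89) and ABCG2 (-1.35 to 0.68), and between parental lines ABCB4 (-1.22 to 0.31).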
